A study of Mus musculus with 18 samples.

Results

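The 10 genes described here encode phosphoinositide lipid kinases and were taken by symbol from the gene count tables: Pip4k2a, Pip4k2b, Pip4k2c, Pip5k1a, Pip5k1b, Pip5k1c, Pip5kl1, Pikfyve, Pik3ca and Pik3cb. They were 10 of 34620 genes listed, and all 10 were among the 17421 genes with enough reads to be tested. RNA was sequenced from the microdissected ventral dentate gyrus (vDG) of adult male Swiss Webster mice aged 8 to 12 weeks, with 2 libraries in each of 3 groups. WT males had a WT mother and a WT maternal grandmother. F1 males had a mother and a grandmother heterozygous for the serotonin 1A receptor knockout (5HT1A-/+). F2 males had a WT mother and a 5HT1A-/+ grandmother. By the paper's breeding scheme, the F1 came from crosses of heterozygous males and females, so their fathers were heterozygous too, whereas F2 fathers were WT. The F1 and F2 males themselves carried the intact receptor gene. The groups thus differed in ancestry, for F1 on the father's side as well, and not in the offspring's own genotype at that gene. The WT mice came from a separate line kept in parallel. The animals of a group came from at least 3 litters on an outbred background, and the sources used here do not say how many animals went into a library, so p-values measure the spread between these libraries, which may be partly technical.

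Phosphoinositides are membrane lipids whose inositol ring carries phosphates at different positions. PIP5K1 enzymes phosphorylate PI4P to PI(4,5)P2, the major phosphoinositide of the plasma membrane and the substrate from which phospholipase C releases diacylglycerol and inositol trisphosphate. PIP4K2 enzymes make the same lipid from the scarce PI5P on internal membranes, Pikfyve phosphorylates PI3P on endosomes, and class I PI3-kinases turn PI(4,5)P2 into PI(3,4,5)P3, which recruits signalling proteins to the membrane. In neurons these lipids govern synaptic vesicle cycling, ion channel gating and signalling from growth factor and neurotransmitter receptors.

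Each library held from 26358165 to 33727936 reads assigned to genes, so that counting error was small for 9 of the 10 genes and the 2 libraries per group limited the precision. Levels are given as TMM-normalized CPM, which are read counts scaled to a common library total, where TMM is a between-library scaling whose factors ranged from 0.982 to 1.02 here. Groups were compared with the edgeR exact test across all 17421 genes at a Benjamini-Hochberg adjusted p (q) under 0.01. Markers of granule neurons were present in every library (summed CPM 1025 to 1563 over 8 genes), and so were markers of other cell types, none of which was at 0. Summed oligodendrocyte markers (12 genes) were 1154 and 2090 CPM in WT, 3141 and 2360 in F1, and 1629 and 3055 in F2. The share of uniquely aligned reads that fell outside annotated exons was 17.7% and 20.7% in WT, 13.8% and 12.2% in F1, and 13.9% and 17.4% in F2. In this bulk tissue, more cells of a type and more RNA per cell cannot be told apart.

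RefSeq promoter windows are printed to show what lies at the start of the genes that changed. They cover 3 genes that passed as higher than WT in F1 or F2 and the 1 that passed as lower. The windows (mouse build GRCm38.p6) run from 250 bases before to 50 bases after the annotated start. A window was matched for 8 of the 10 genes, and Pip4k2b and Pip5k1b had none in the table used. Each is written 5′ to 3′ on the gene's strand, and capitals mark the GC box GGGCGG, the CCAAT box CCAAT, the TGACG core of the cyclic AMP response element and the E-box CACGTG, each searched on both strands. Pip4k2c is at chr10:127211573-127211872 on the minus strand, Pikfyve at chr1:65186435-65186734 on the plus strand, Pik3cb at chr9:99140162-99140461 on the minus strand, and the first of 3 Pip5kl1 windows at chr2:32575468-32575767 on the plus strand.
Pip4k2c: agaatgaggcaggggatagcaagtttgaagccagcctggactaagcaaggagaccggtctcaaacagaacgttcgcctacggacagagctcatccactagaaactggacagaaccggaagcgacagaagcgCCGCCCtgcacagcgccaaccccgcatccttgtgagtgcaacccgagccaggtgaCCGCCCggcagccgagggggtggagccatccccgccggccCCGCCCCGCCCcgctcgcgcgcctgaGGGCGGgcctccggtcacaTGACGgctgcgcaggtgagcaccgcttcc
Pikfyve: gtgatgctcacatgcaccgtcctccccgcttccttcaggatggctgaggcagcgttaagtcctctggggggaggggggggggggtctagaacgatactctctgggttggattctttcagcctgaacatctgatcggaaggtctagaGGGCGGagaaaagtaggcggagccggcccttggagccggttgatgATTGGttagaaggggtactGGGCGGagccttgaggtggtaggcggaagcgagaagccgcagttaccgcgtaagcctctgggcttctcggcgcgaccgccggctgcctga
Pik3cb: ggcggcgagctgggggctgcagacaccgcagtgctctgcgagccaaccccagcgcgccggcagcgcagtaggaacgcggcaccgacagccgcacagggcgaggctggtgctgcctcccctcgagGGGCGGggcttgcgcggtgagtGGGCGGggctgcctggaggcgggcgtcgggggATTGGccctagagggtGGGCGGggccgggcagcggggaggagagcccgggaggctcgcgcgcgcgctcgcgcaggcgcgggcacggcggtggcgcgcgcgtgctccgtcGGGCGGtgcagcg
Pip5kl1: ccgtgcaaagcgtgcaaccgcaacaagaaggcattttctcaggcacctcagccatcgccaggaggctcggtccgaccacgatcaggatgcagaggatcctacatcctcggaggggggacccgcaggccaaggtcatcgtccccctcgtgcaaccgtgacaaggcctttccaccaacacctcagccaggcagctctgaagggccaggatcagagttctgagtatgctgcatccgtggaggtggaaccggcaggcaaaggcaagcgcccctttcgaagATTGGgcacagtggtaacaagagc

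The Pip4k2c window held 5 GC boxes, of which 1 pair overlapped, and 1 TGACG. The Pik3cb window held 4 GC boxes and 1 CCAAT box, and the Pikfyve window 2 GC boxes and 1 CCAAT box. None of the 3 Pip5kl1 windows held a GC box, and neither did the window of Pip5k1a, a gene that did not pass the test. GC boxes were found in 35.7% of 32851 promoter windows of the same length, CCAAT boxes in 37.4%, TGACG in 20.8% and E-boxes in 7.15%. The number of CG pairs was 27 for Pip4k2c, 20 for Pikfyve, 44 for Pik3cb, and 16, 18 and 2 for the windows of Pip5kl1, against a median of 7 over all windows. Genes that did not pass the test also had such letters: the Pip4k2a window held 8 GC boxes, 2 TGACG and 52 CG pairs, and that of Pip5k1c 5 GC boxes, 3 CCAAT boxes and 28 CG pairs. These matches describe the sequence and do not show binding by a factor.

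In WT, the order of levels was read from CPM per kilobase of exon, which allows genes of different length to be compared. Pip5k1c, the main neuronal PI4P 5-kinase at synapses, was the most abundant at 57.3 ± 4.37 CPM per kb (SD, n = 2). Pip4k2c followed at 26.9 ± 2.13, Pip4k2b at 22.6 ± 0.485 and Pip5k1a at 19.8 ± 0.835 CPM per kb. Pip4k2a (15.9 ± 0.386) and Pip5k1b (15.4 ± 1.33) had overlapping WT values and so did not differ beyond their spread. The 2 catalytic subunits of PI3-kinase were lower, Pik3cb at 7.57 ± 0.330 and Pik3ca at 6.67 ± 0.0576 CPM per kb. Pip5kl1 (1.64 ± 0.301) and Pikfyve (1.34 ± 0.0580) were at the bottom of the order. Apart from Pip4k2a and Pip5k1b, neighbours in this order had WT values that did not overlap.

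At q under 0.01, 3 of the 10 genes differed between F1 and WT and 4 of the 10 between F2 and WT, where 12.3% and 12% of all tested genes passed. Pip4k2b and Pip4k2c rose in F1, Pip4k2b, Pikfyve and Pik3cb rose in F2, and Pip5kl1 fell in both. Among all tested genes 3.77% passed as higher and 8.54% as lower in F1, and 3.87% and 8.1% in F2. The median log2 fold change of the 10 genes was 0.24 in F1 and 0.20 in F2, against 0.01 and -0.00032 over all tested genes. The paper lists Pip4k2b, Pip5kl1, Pikfyve and Pik3cb among the genes that changed in both F1 and F2. Its results give a threshold of q under 0.01, whereas its methods give 0.05. At q under 0.05, Pikfyve (edgeR q = 0.0349) and Pik3cb (edgeR q = 0.0170) also passed in F1 here. The 10 genes were chosen with earlier results of these data known, so these counts and medians are not independent of those results. Both comparisons used the same 2 WT libraries, so they are not independent of each other. Pip4k2b and Pip5kl1 passed in both with the same direction, as 7.67% of all genes did. Between F2 and F1 only Pip4k2c passed, and it was lower in F2, where 0.74% of all genes passed and 0.436% as lower. At q under 0.05 the exact test gave 6, 4 and 1 of the 10 genes in the 3 comparisons, against 20.8%, 20.7% and 1.32% of all genes. The stricter edgeR quasi-likelihood test at q under 0.01 gave 1 gene in F1 (Pip4k2c) and 0 in F2 and in F2 against F1, against 5.91%, 5.72% and 0.0115% of all genes, and at an unadjusted p under 0.05 it gave 6, 5 and 1 of the 10, against 33.3%, 33.2% and 9.01% of all genes.

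**Figure D1:**
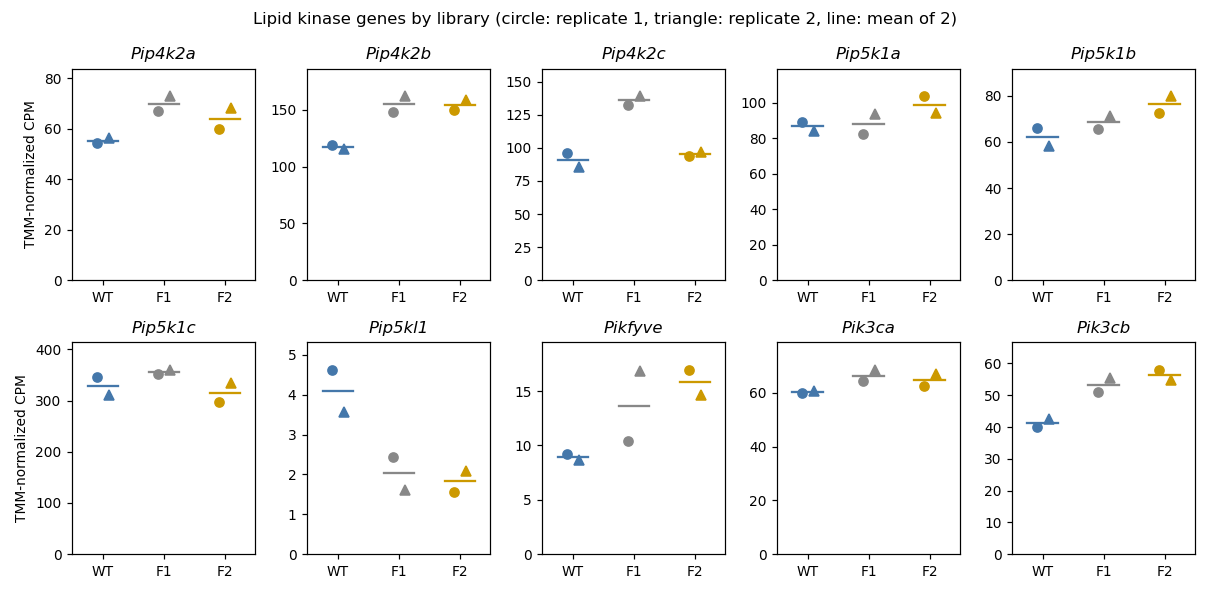
TMM-normalized CPM (vertical axes, from 0) of the 10 lipid kinase genes in WT, F1 and F2, with a circle for replicate 1, a triangle for replicate 2 and a line at the mean of 2. Pip4k2c is high in F1 alone (132 and 139 CPM), whereas Pip4k2b, Pikfyve and Pik3cb are above both WT libraries, and Pip5kl1 below both, in all 4 F1 and F2 libraries.

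The ranges of 8 of the 10 genes in F1 and 8 of the 10 in F2 did not overlap with WT, but 60.4% and 63% of all tested genes were likewise apart, so that this count says little with 2 libraries per group. All 4 F1 and F2 libraries lay above both WT libraries for 5 genes, Pip4k2a, Pip4k2b, Pikfyve, Pik3ca and Pik3cb, and below them for Pip5kl1. Over all tested genes the 4 libraries lay above WT for 21% and below for 23.7%.

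PIP4K2 genes. The 3 genes of this family encode the alpha, beta and gamma PI5P 4-kinases. Pip4k2c, the gamma enzyme (NCBIM37/mm9, chromosome 10, bases 126634123 to 126648678, minus strand, 10 exon blocks), was measured at 96.0 and 85.8 CPM in WT, 132 and 139 in F1, and 93.6 and 97.1 in F2. Both F1 libraries were above every other library, and the F2 range overlapped with WT. The log2 fold change was 0.58 (SE 0.12, edgeR q = 2.91e-05) in F1, a rise of 49.3%, and 0.07 (SE 0.12, edgeR q = 0.744) in F2. F2 was directly compared with F1 and was lower by 29.7%, with a log2 fold change of -0.51 (SE 0.12, 95% interval -0.74 to -0.28, edgeR q = 0.00332).

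The rise of Pip4k2c in F1 passed in every alternative and on leaving out each of the 6 libraries in turn, with log2 fold changes from 0.50 to 0.66 and edgeR q from 0.00017 to 0.00848. The difference between F2 and F1 no longer passed on leaving out any 1 of the F1 or F2 libraries (edgeR q of 0.0167, 0.0350, 0.286 and 0.0745 without F1 replicate 1, F1 replicate 2, F2 replicate 1 and F2 replicate 2) or under the quasi-likelihood test (edgeR q = 0.0633). The summed CPM of 7 markers of pyramidal neurons of the CA fields was 278 and 309 in WT, 382 and 345 in F1, and 268 and 303 in F2, but the 7 did not move as 1 group. In F2 against F1, Bok and Neurod6, the largest contributor to the sum, passed as lower, Iyd had a negative log2 fold change that did not pass (-0.37), and the other 4 had positive ones that did not pass (Fibcd1 0.53, Mpped1 0.49, Wfs1 0.25 and Spink8 0.05), with a median of 0.05 over the list. The part of these cells in the Pip4k2c difference was not tested. An exon of Pip4k2c overlaps the antisense RNA F420014N23Rik by 244 bases (7.23% of its exon length), and this library type does not record strand, so reads of the shared bases cannot be told apart. F420014N23Rik itself was counted with 32 to 102 reads per library, and the part of the overlap in the Pip4k2c values was not tested.

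Pip4k2b, the beta enzyme found in cytoplasm and nucleus (chromosome 11, bases 97576471 to 97606018, minus strand, 11 exon blocks), was measured at 119 and 116 CPM in WT, 148 and 162 in F1, and 150 and 159 in F2. All 4 F1 and F2 libraries were above both WT libraries, by similar amounts. The log2 fold change was 0.40 (SE 0.12, edgeR q = 0.00540) in F1 and 0.39 (SE 0.12, edgeR q = 0.00671) in F2, rises of 32.0% and 31.3%. The F2 against F1 difference was -0.01 (95% interval -0.23 to 0.22) on the log2 scale. Both calls were close to the threshold. In F1 the call was lost without WT replicate 1, WT replicate 2, F1 replicate 2, F2 replicate 1 or F2 replicate 2 (edgeR q of 0.0467, 0.0730, 0.0869, 0.0131 and 0.0129), and in F2 without WT replicate 1, WT replicate 2, F2 replicate 1 or F2 replicate 2 (edgeR q of 0.0566, 0.0737, 0.0497 and 0.115). Under the quasi-likelihood test the edgeR q was 0.0166 in F1 and 0.0185 in F2.

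Pip4k2a, the alpha enzyme (chromosome 2, bases 18763882 to 18919753, minus strand), was measured at 54.4 and 56.3 CPM in WT, 66.8 and 72.9 in F1, and 59.8 and 68.1 in F2. All 4 were above WT, yet the log2 fold changes of 0.34 in F1 (SE 0.12, edgeR q = 0.0335) and 0.21 in F2 (SE 0.12, edgeR q = 0.231) did not pass.

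The 3 genes summed to 67.0 and 63.8 CPM per kb in WT, 86.9 and 93.3 in F1, and 73.7 and 78.9 in F2, so that the F1 sums were the highest and the F2 sums lay between. Within that sum, Pip4k2c held 42.5% and 39.8% in WT, 45.2% and 44.2% in F1, and 37.6% and 36.5% in F2, and was the largest share in F1 and WT. In F2, Pip4k2b held 39.0% and 38.7%, against 34.2% and 34.8% in WT and 32.7% and 33.4% in F1, and was the larger of the pair. The share of Pip4k2a stayed between 22.1% and 25.3% in all 6 libraries. No test was run on these shares.

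**Figure D2:**
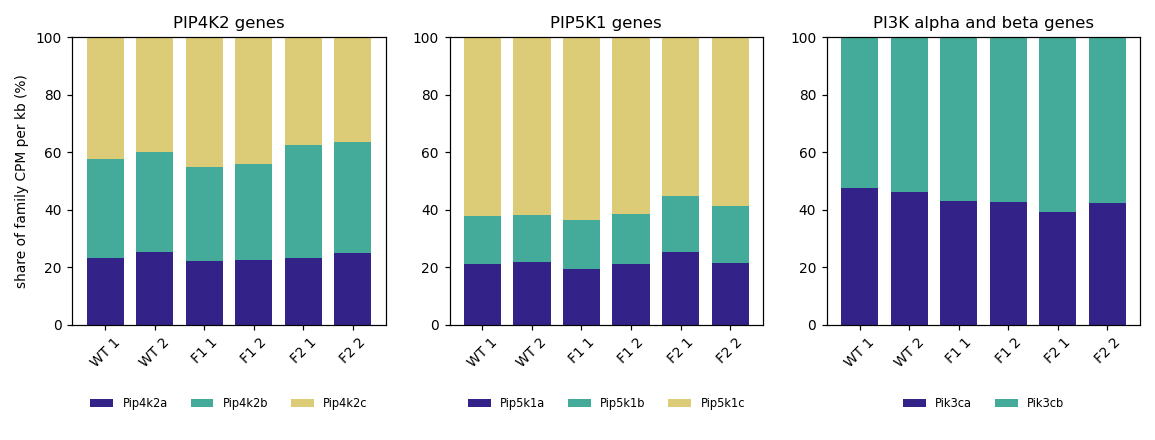
Share of each gene (vertical axis, percent, stacked from 0 to 100) in the summed CPM per kilobase of its family, for each of the 6 libraries. In the PIP4K2 panel the Pip4k2c share is 45.2% and 44.2% in F1 and 37.6% and 36.5% in F2, and in the PI3K panel the Pik3cb share runs from 52.5% in WT replicate 1 to 60.7% in F2 replicate 1.

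PIP5K1 genes. None of the 3 PI4P 5-kinase genes passed the edgeR exact test in F1 or F2 (0 and 1 at an unadjusted p under 0.05). By the quasi-likelihood test, a different test from that of these counts, 33.3% and 33.2% of all genes had an unadjusted p under 0.05. Pip5k1c, the gamma enzyme (chromosome 10, bases 80755708 to 80782718, plus strand), was measured at 346 and 311 CPM in WT, 352 and 360 in F1, and 296 and 334 in F2. The F2 libraries overlapped with WT and lay below both F1 libraries. Its log2 fold changes were 0.12 in F1 (95% interval -0.12 to 0.35, edgeR q = 0.545) and -0.06 in F2 (95% interval -0.29 to 0.18, edgeR q = 0.788).

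Pip5k1b, the beta enzyme (chromosome 19, bases 24369284 to 24630362, minus strand), was measured at 66.0 and 58.4 CPM in WT, 65.8 and 71.2 in F1, and 72.6 and 79.8 in F2. F1 overlapped with WT, and F2 was above it. The log2 fold change was 0.14 (SE 0.12, edgeR q = 0.461) in F1 and 0.29 (SE 0.12, edgeR q = 0.0718) in F2.

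Pip5k1a, the alpha enzyme (chromosome 3, bases 94862452 to 94910852, minus strand), was measured at 89.4 and 84.2 CPM in WT, 82.2 and 93.9 in F1, and 104 and 94.1 in F2. The F1 libraries lay on both sides of WT, and the F2 libraries above it. Its log2 fold changes were 0.02 in F1 (95% interval -0.22 to 0.26, edgeR q = 0.944) and 0.19 in F2 (95% interval -0.05 to 0.43, edgeR q = 0.296). These intervals allow changes of the size seen for Pip4k2b in F2 but not in F1 for Pip5k1a, and in neither group for Pip5k1c. Pip5k1c held 62.2% and 61.7% of the family's summed CPM per kb in WT, 63.6% and 61.6% in F1, and 55.4% and 58.5% in F2, and the sum ranged from 87.9 to 102 CPM per kb without separating the groups.

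Pip5kl1. This gene (chromosome 2, bases 32430317 to 32439302, plus strand, 12 exon blocks) encodes a PIP5K-like protein that lacks appreciable kinase activity of its own and binds other PIP kinases. It was the only member that passed as lower than WT, and the one measured with the fewest reads. These were 157 and 101 reads in WT, 74 and 50 in F1, and 42 and 56 in F2. In CPM these were 4.62 and 3.55, 2.44 and 1.62, and 1.57 and 2.08. All 4 F1 and F2 libraries were below both WT libraries, and F1 and F2 overlapped with each other. The level fell by 50.4% in F1, with a log2 fold change of -1.01 (SE 0.29, edgeR q = 0.00535), and by 55.4% in F2, with -1.16 (SE 0.30, edgeR q = 0.00140).

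The F1 call of Pip5kl1 was lost without WT replicate 1 (edgeR q = 0.138) or F1 replicate 2 (edgeR q = 0.128). The F2 call was lost without WT replicate 1 (edgeR q = 0.0830), F2 replicate 1 (edgeR q = 0.108) or F2 replicate 2 (edgeR q = 0.0124), and the quasi-likelihood test gave edgeR q of 0.0277 in F1 and 0.0176 in F2. DESeq2 also lost both calls, with q of 0.0336 in F1 and 0.0134 in F2. Its exons overlap those of the antisense gene 9430097D07Rik by 517 bases (20.7% of exon length), and reads of those bases cannot be told apart by strand. That gene itself was counted with 4 to 8 reads per library, and the part of the overlap in the Pip5kl1 values was not tested. WT also had the larger share of reads outside annotated exons, 17.7% and 20.7% against 12.2% to 17.4% in the other 4 libraries, and the part of this in the fall of Pip5kl1 was not tested.

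Pikfyve. The PI3P 5-kinase Pikfyve (chromosome 1, bases 65233324 to 65320586, plus strand, 43 exon blocks) makes PI(3,5)P2 on endosomes and lysosomes. It was measured at 9.20 and 8.65 CPM in WT, 10.4 and 16.9 in F1, and 16.9 and 14.7 in F2. Both F2 libraries and F1 replicate 2 were well above WT, whereas F1 replicate 1 was only slightly above it. The log2 fold change in F2 was 0.82 (SE 0.22, edgeR q = 0.00284), a rise of 76.8%, and that in F1 was 0.61 (SE 0.22, edgeR q = 0.0349), which did not pass. Without F1 replicate 1 the F1 log2 fold change was 0.92 and passed (edgeR q = 7.86e-05), and without F1 replicate 2 it was 0.23 (edgeR q = 0.548). The F2 call was lost without WT replicate 1, WT replicate 2, F2 replicate 1 or F2 replicate 2 (edgeR q of 0.0426, 0.0517, 0.0997 and 0.0146) and under the quasi-likelihood test (edgeR q = 0.0213). The F2 against F1 difference of 0.21 (95% interval -0.22 to 0.64) did not pass, so a difference between F1 and F2 in this gene was not shown. Vac14 and Fig4, the scaffold and phosphatase that hold Pikfyve in its complex, did not pass the edgeR exact test in either group (0 at an unadjusted p under 0.05), with log2 fold changes from 0.02 to 0.24.

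PI3-kinase catalytic subunits. Pik3cb, the beta subunit p110beta, which responds to G protein-coupled receptors as well as to receptor tyrosine kinases (chromosome 9, bases 98938821 to 99041040, minus strand, 26 exon blocks), was measured at 39.9 and 42.5 CPM in WT, 51.1 and 55.3 in F1, and 57.9 and 54.7 in F2. All 4 F1 and F2 libraries were above both WT libraries. The log2 fold change was 0.45 (SE 0.12, edgeR q = 0.00275) in F2, a rise of 36.7%, and 0.37 (SE 0.12, edgeR q = 0.0170) in F1, which did not pass. The F2 call was lost without WT replicate 1, WT replicate 2, F2 replicate 1 or F2 replicate 2 (edgeR q of 0.0749, 0.0148, 0.0964 and 0.0252) and under the quasi-likelihood test (edgeR q = 0.0136). F2 and F1 differed by 0.08 (95% interval -0.16 to 0.32), and their values overlapped.

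Pik3ca, the alpha subunit p110alpha (chromosome 3, bases 32296593 to 32367408, plus strand), was measured at 60.1 and 60.8 CPM in WT, 64.3 and 68.5 in F1, and 62.5 and 67.0 in F2. All 4 were above WT by a small amount, with log2 fold changes of 0.13 in F1 (95% interval -0.09 to 0.36, edgeR q = 0.452) and 0.10 in F2 (95% interval -0.13 to 0.33, edgeR q = 0.607). Pik3cb thus held 52.5% and 53.8% of the summed CPM per kb of the pair in WT, 57.0% and 57.4% in F1, and 60.7% and 57.6% in F2.

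**Figure D3:**
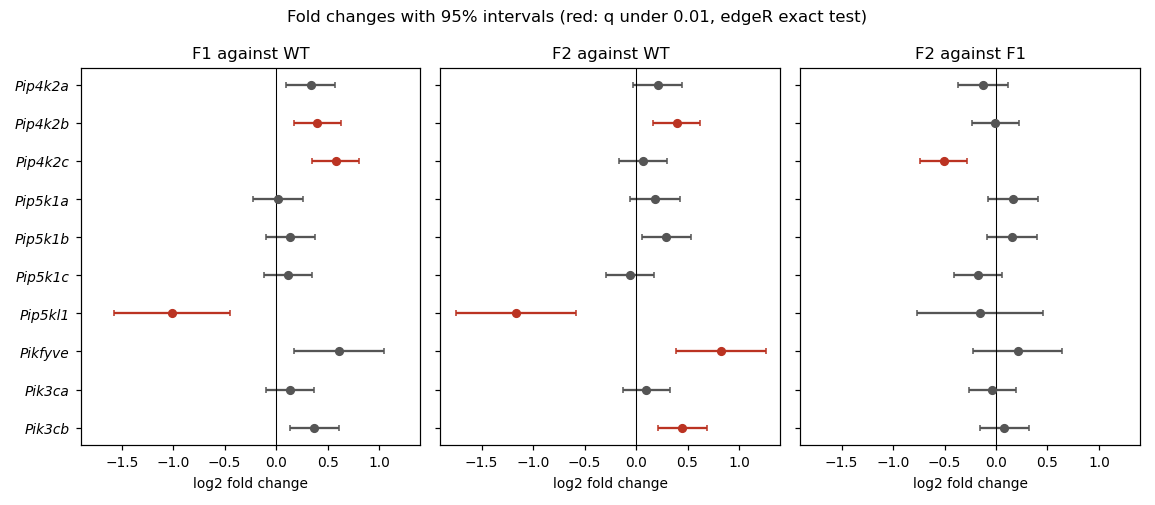
Log2 fold change (horizontal axes) of each lipid kinase gene with its 95% interval, for F1 against WT, F2 against WT and F2 against F1, in red where q was under 0.01. Pip4k2c is red in the F1 and the F2 against F1 panels (0.58 and -0.51), Pip4k2b and Pip5kl1 in both comparisons with WT, and Pikfyve and Pik3cb in F2 alone.

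The astrocyte and microglial sums were also higher in F1 and F2 than in WT, without overlap. The oligodendrocyte sum of F2 replicate 1 (1629 CPM) lay below that of WT replicate 2 (2090 CPM). All 8 astrocyte and all 8 microglial markers had positive log2 fold changes in both groups. Some were near 0 and overlapped with WT, such as Gjb6 in F1 (0.01) and Aif1 in F2 (0.03). Slc1a2 was the largest contributor to the astrocyte sum, with 1163 and 1335 CPM in WT. Summed astrocyte markers (8 genes) were 2413 and 2640 CPM in WT, 2954 and 3585 in F1, and 4021 and 3355 in F2, with 1 of 8 called in F1 and 5 of 8 in F2. Summed microglial markers (8 genes) were 128 and 126 CPM in WT, 151 and 174 in F1, and 195 and 167 in F2, with 0 of 8 called in F1 by the edgeR exact test (4 at an unadjusted p under 0.05) and 5 of 8 in F2. Of 7 interneuron markers 1 passed in F1 and 2 in F2, and of 5 endothelial markers 0 and 1 passed (1 and 4 at an unadjusted p under 0.05). Of the 12 oligodendrocyte markers, all had a positive log2 fold change in both groups, and 4 passed in F1 and 2 in F2. Granule neuron markers did not pass in either group (0 of 8 by the edgeR exact test, with 2 in F1 and 6 in F2 at an unadjusted p under 0.05). Of all tested genes, 12.3% in F1 and 12% in F2 passed the edgeR exact test at q under 0.01, with 3.77% and 3.87% as higher. At the unadjusted threshold, a different test, the quasi-likelihood test, gave 33.3% of all genes in F1 and 33.2% in F2. Pip4k2b, Pikfyve, Pik3cb and both the astrocyte and the microglial sums shared an order, with WT lowest, F1 replicate 1 next, and F1 replicate 2 and the F2 libraries above. Pip4k2c did not follow this order, since its F2 values overlapped with WT, and neither did the remaining members. Pip4k2a and Pik3ca were above WT in all 4 libraries. Their F2 replicate 1 values (59.8 and 62.5 CPM) were below those of F1 replicate 1 (66.8 and 64.3 CPM). The order was noticed after seeing the data, and the share of all genes that follow it was not counted. The part of glial cells in these differences was not tested.

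**Figure D4:**
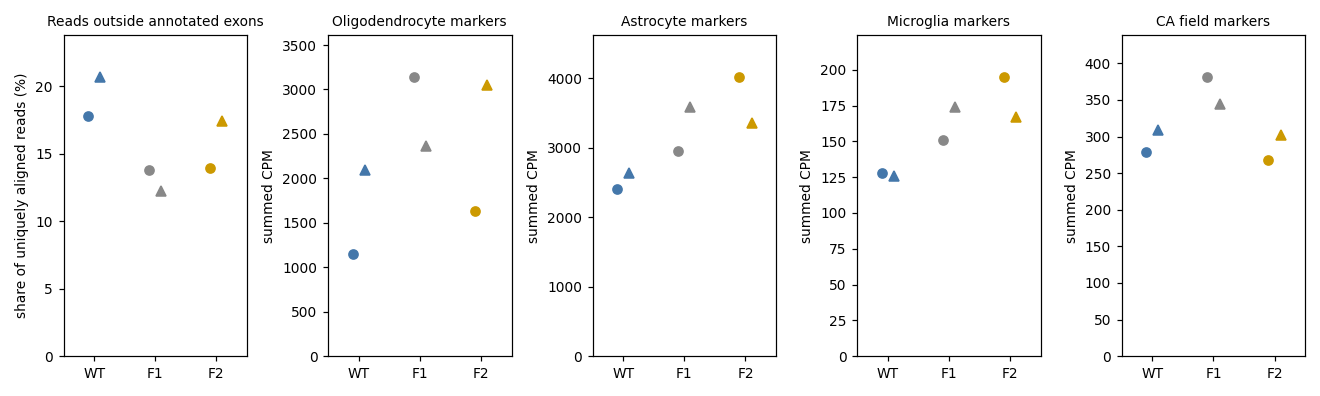
Share of uniquely aligned reads outside annotated exons (percent) and summed CPM of 4 marker lists in WT, F1 and F2, with a circle for replicate 1 and a triangle for replicate 2. WT holds the lowest astrocyte and microglial sums, and the CA field sum is highest in F1 (382 and 345 CPM).

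The rest of the phosphoinositide pathway was described with 56 further genes, of which 55 were tested (Pik3c2g was not). In F1, 3 of 55 passed (5.45%), and in F2 4 of 55 (7.27%), against the 12.3% and 12% of all tested genes. The median log2 fold change of the 55 genes was 0.08 in F1 and 0.04 in F2. None of the 55 passed between F2 and F1 by the edgeR exact test, and 5 had an unadjusted p under 0.05. By the quasi-likelihood test, a different test from that of this count, 9.01% of all genes had such a p between F2 and F1. Under the quasi-likelihood test 0 passed in F1 and 1 in F2, and DESeq2 gave 2 and 4.

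Of 24 phosphoinositide phosphatases, 1 passed as lower in F1 (4.17%) and 2 in F2 (8.33%), where 8.54% and 8.1% of all tested genes did. None passed as higher, where 3.77% and 3.87% of all tested genes did. Of the 24, 12 had a positive log2 fold change in F1 and 11 in F2. Inpp5b, a 5-phosphatase of PI(4,5)P2, was measured at 43.5 and 37.7 CPM in WT, 30.5 and 29.3 in F1, and 28.5 and 28.8 in F2, with log2 fold changes of -0.44 (edgeR q = 0.00897) and -0.50 (edgeR q = 0.00256). Inpp5j, another 5-phosphatase, was measured at 121 and 85.1 CPM in WT, 83.3 and 79.1 in F1, and 62.3 and 76.5 in F2, and passed in F2 alone (log2 fold change -0.57, edgeR q = 0.00429). The gap between the 2 WT libraries of Inpp5j was wider than the gap between WT replicate 2 and F1.

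Of 9 genes for the synthesis and transfer of phosphatidylinositol, 1 passed in each group (11.1%), as higher. Of all tested genes, 12.3% passed in F1 and 12% in F2, with 3.77% and 3.87% as higher. Cds2, which makes the CDP-diacylglycerol precursor of phosphatidylinositol, was measured at 383 and 376 CPM in WT, 441 and 480 in F1, and 555 and 540 in F2. It rose in F2 (log2 fold change 0.53, SE 0.11, edgeR q = 8.48e-05), whereas the F1 value of 0.28 (edgeR q = 0.0615) did not pass. Pitpna, a phosphatidylinositol transfer protein, was measured at 247 and 220 CPM in WT, 311 and 313 in F1, and 271 and 268 in F2. It rose in F1 (log2 fold change 0.42, SE 0.12, edgeR q = 0.00369) and was highest in F1, as Pip4k2c was, but its F2 against F1 difference of -0.21 did not pass (edgeR q = 0.637). Among the other catalytic subunits of phosphoinositide kinases (9 tested) and the 7 PI3-kinase regulatory genes, none passed in F1 or F2 by the edgeR exact test. At an unadjusted p under 0.05 there were 3 of the 9 in F1 and 1 in F2, and 1 of the 7 in F1 and 5 in F2. Those 5 included both higher and lower genes. These counts are from the edgeR exact test. By the quasi-likelihood test, 33.3% of all genes in F1 and 33.2% in F2 had an unadjusted p under 0.05.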

How the data were processed

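The authors dissected ventral dentate gyrus from cryosections of brains perfused with RNAlater, sequenced single-end reads of 50 bases, aligned them to mm9 (NCBIM37) with TopHat2 (version 2.0.2 in the submitters' processing notes, where the paper names another release) and counted genes with HTSeq in its intersection-strict mode. The deposited values are raw read counts per gene, 1 table per library, and the strand setting of the count is not given in the sources used here. Reads that aligned to several places were not counted. The kit does not mark strand. The bisulfite samples of the series were not used here.

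Here, the 6 count tables were joined, rows that name no gene were set aside, genes were kept by filterByExpr, and libraries were scaled by TMM (edgeR 4.0.16, R 4.3.3). Groups were compared with the edgeR exact test and tagwise dispersion estimated over all 6 libraries (common coefficient of variation 10.6%). The paper names edgeR with tagwise dispersion and default parameters. The quasi-likelihood test, DESeq2 1.42.0, other scalings, thresholds and filters, GC content and exon length offsets, a replicate block and leaving out each library were also tried. P-values were adjusted over all 17421 genes. Standard errors were derived from each gene's mean counts with its tagwise dispersion, and intervals are log2 fold change ± the normal 95% quantile times that error. Replicates were not duplicates (chi-square per degree of freedom 19.4 to 24.9). Exon lengths and coordinates come from GENCODE on the same build. The scripts were tested on simulated data. All 10 genes are named, and of the other phosphoinositide genes those with q under 0.01 in F1 or F2, except 1 that is not reported here. The genes and lists were chosen with earlier results of these data known.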

Additional observations from a re-analysis of the deposited data

Results flagged for a closer look

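Pip4k2c differed between F1 and F2: its F2 against F1 log2 fold change was -0.51, with the F1 libraries at 132 and 139 CPM and the F2 libraries at 93.6 and 97.1 (edgeR q = 0.00332). The CA field markers Bok (F2 against F1 log2 fold change -0.75, edgeR q = 0.000576) and Neurod6 (-0.84, edgeR q = 0.000172) differed in the same direction, while the other 5 markers of that list did not pass and 4 of them had positive values (Fibcd1 0.53, Mpped1 0.49, Wfs1 0.25 and Spink8 0.05). Neurod6 was measured at 121 and 160 CPM in WT, 183 and 183 in F1, and 85.0 and 120 in F2. Pik3r5, a regulatory subunit of PI3-kinase gamma, lay above both WT libraries in F1 and below them in F2, with a difference of -0.73 that did not pass (edgeR q = 0.271) and 39 to 87 reads per library.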

How the results depend on the processing

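The 8 calls among the lipid kinase genes were lost in 24 of 120 fits over 15 alternatives to the edgeR exact test as run, and in 26 of 48 fits that left out 1 library. The alternatives included the same exact test at q under 0.05, where no call could be lost. They also counted the quasi-likelihood test without a replicate block at both thresholds. Over all 30 differences of the 10 genes, most of them not called, 416 of 450 values and 141 of 180 kept their direction and their side of the threshold. The Pip4k2c call in F1 was kept throughout. Under the quasi-likelihood test without a replicate block the counts of lipid kinase genes were 1 in F1 (Pip4k2c), 0 in F2 (5 at an unadjusted p under 0.05) and 0 between F2 and F1 (1 at an unadjusted p under 0.05), with 0 and 1 of the other phosphoinositide genes in F1 and F2. At q under 0.05 that test, added after seeing the data, gave 5 in F1, 4 in F2 and 0 between F2 and F1, where 17.3%, 17.2% and 0.31% of all genes passed, with 7 and 5 of the other genes. DESeq2 gave 2, 3 and 1 lipid kinase genes, where 9.46%, 9.44% and 0.591% of all genes passed, and lost Pip5kl1 in both groups. The exact test at q under 0.05 gave 6 in F1 and 4 in F2, with 7 and 7 of the other genes, and offsets for GC content and exon length gave 9 of the other genes in F1. The causes of these changes were not tested.

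The replicate numbers of the labels did not show pairing (correlations of deviations -0.00862, -0.0898 and -0.230). With the replicate block, the quasi-likelihood test gave 1, 0 and 0 lipid kinase genes in F1, F2 and F2 against F1 and 0 of the other genes in either group, and the likelihood-ratio test 2, 2 and 0, with 1 and 3 of the other genes. With the F2 numbers crossed in the block, an alternative added after seeing the data, the likelihood-ratio test gave 4, 4 and 1.

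Leaving out 1 library gave 1 to 4 lipid kinase genes in F1, 0 to 4 in F2 and 0 to 1 between F2 and F1, and 0 to 2 and 0 to 6 of the other genes in F1 and F2. For lipid kinase genes, F1 had 1 without WT replicate 1 or F1 replicate 2, and F2 had 0 without WT replicate 1, F2 replicate 1 or F2 replicate 2 and 1 without WT replicate 2. For the other genes, F1 had 0 without F1 replicate 2 and 1 without WT replicate 1 or F1 replicate 1, and F2 had 0 without F2 replicate 1, 1 without WT replicate 1 and 3 without WT replicate 2. Directions turned for differences near 0: Pip5k1a in F1 was -0.0032 with library size only, and Pip4k2b in F2 against F1 was 0.010 with upper-quartile factors and 0.00089 with library size only. On leaving out libraries, Pip5k1a in F1 ran from -0.075 to 0.11, Pip4k2c in F2 from -0.0094 to 0.15, Pip5k1c in F2 from -0.15 to 0.024, and in F2 against F1 Pip4k2b from -0.071 to 0.059, Pip5kl1 from -0.42 to 0.17, Pikfyve from -0.095 to 0.60 and Pik3ca from -0.087 to 0.014. Depth limited Pip5kl1, with 42 to 157 reads per library.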
